A study of Mus musculus with 12 samples.

Results

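The 10 genes described here encode feedback inhibitors of signalling. They are the MAP kinase phosphatases Dusp1, Dusp2, Dusp4, Dusp5 and Dusp6, the NF-κB inhibitors Nfkbia, Nfkbiz and Tnfaip3, and the mRNA decay factors Zfp36 and Zfp36l1. They were chosen by name, for these functions, with earlier results of these data known, and all 10 were found among the 23937 genes of the table. RNA was sequenced from sorted CD8 T cells in 12 libraries, 3 in each of 4 groups. Naive blood and naive brain came from mice without stroke, and day 3 and day 30 brain from mice at those times after stroke. The sources used here do not give strain, genotype, age or stroke model. The tissue labels read brain or blood while the protocol text speaks of spleens, and groups follow the tissue labels. Whether each sample is a separate mouse is not stated, so p-values measure only how these samples spread, in part perhaps for technical reasons.

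These genes act as brakes because the pathways they dampen switch them on. Dual-specificity phosphatases remove phosphate from activated MAP kinases, the kinases that carry growth factor, stress and antigen receptor signals to the nucleus. Nfkbia encodes IκBα, which holds NF-κB in the cytoplasm and is itself transcribed by NF-κB, so that each pulse of the pathway restores its own inhibitor. Zfp36 (tristetraprolin) and Zfp36l1 bind AU-rich stretches of cytokine mRNAs and send these mRNAs to decay. In T cells such genes are induced within minutes of receptor stimulation, and several are also known to be induced while tissue is being dissociated.

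Levels are in CPM, read counts per-million of a library size that the authors scaled. Differences are in log2(CPM + 1), first group minus second, with the standard error (SE) from limma, and a gene is said to have risen or fallen where limma's Benjamini-Hochberg adjusted p was under 0.05. Depth ran from 1104490 to 21014171 reads per library. Cd8a measured 52.8 to 2809 CPM and Cd4 0.906 to 26.8 CPM over the 12 libraries. A further difference lay in reads on 1490 sensory receptor genes (olfactory, vomeronasal and taste), which have no known use in T cells. The 7 libraries above 1000 CPM of such reads, before scaling, are called high background here. They are all 3 of blood and replicates 2 and 3 of day 3 and of day 30. The 5 low background libraries are all 3 of naive brain and replicate 1 of day 3 and of day 30. Between naive brain and blood, background and tissue therefore cannot be told apart. Summed microglia markers (12 genes, none at 0 in any group) measured 150 to 276 CPM in blood, 17137 to 45802 in naive brain, 2134 to 24268 at day 3 and 1575 to 8761 at day 30. Summed T cell markers (9 of 10 listed genes in the table) measured 1860 to 3465, 8009 to 14094, 351 to 3540 and 3903 to 18629 CPM in the same order. Summed monocyte and macrophage markers (9 of 10 in the table) measured 295 to 1368, 4729 to 5607, 1495 to 14770 and 2309 to 6905 CPM. Ly6c2 alone made up most of that last sum in the naive brain libraries (3578, 2564 and 4009 CPM). It also did so in day 30 replicate 1 (5827.5 CPM), whereas Lyz2 was larger in day 3 replicate 1 (7864 against 4457.5 CPM). Of the 9 genes, 6 had a positive and 3 a negative difference between naive brain and blood, with 4 called higher and 0 lower. The part of these differences in the results below was not tested except where a value is given, and in such bulk samples fewer cells of a type and less RNA per cell cannot be told apart.

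In their summed reads the 10 genes were high in naive brain, low in blood, and split by replicate after stroke, which did not hold for each gene. Together they held between 0.660% and 1.05% of reads in naive brain libraries and between 0.118% and 0.215% in blood libraries. At day 3 they took 0.841% in replicate 1 and 0.329% and 0.337% in the others, and at day 30 0.517%, 0.247% and 0.204% in replicates 1 to 3. Between naive brain and blood 7 of the 10 rose and none fell, where 6.61% of all 22352 tested genes rose and 0.975% fell. All 3 naive brain libraries lay above all 3 blood libraries for 9 of the 10, against 15.6% of tested genes. At day 3 against naive brain 2 of the 10 fell (0.564% of tested genes), and these 2 were also those with all 3 libraries below all 3 (8.5%). At day 30 against naive brain 2 others fell (0.224%), and 4 had all 3 libraries below (6.03%). Both day 30 calls were lost with edgeR, with DESeq2 and with a term for library background (low or high) in the model, and in most other settings tried. Day 3 against blood gave 1 that rose (1.1%), and 6 with all 3 libraries above (7.54%). Between day 30 and day 3 limma called 0 of the 10, with 3 at an unadjusted p under 0.05, where 0.116% of tested genes were called higher and 0.139% lower. edgeR and DESeq2 on the recovered reads also called 0 there. With replicate number as a block, 0 of the 10 were called between day 30 and day 3, while the calls over all genes went from 57 to 115. Day 30 against blood gave 0 by limma, with 5 at an unadjusted p under 0.05 and 2 called by each of edgeR and DESeq2 (0.676% of tested genes rose by limma), and 5 of the 10 had all 3 libraries above (7.35%).

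**Figure D1:**
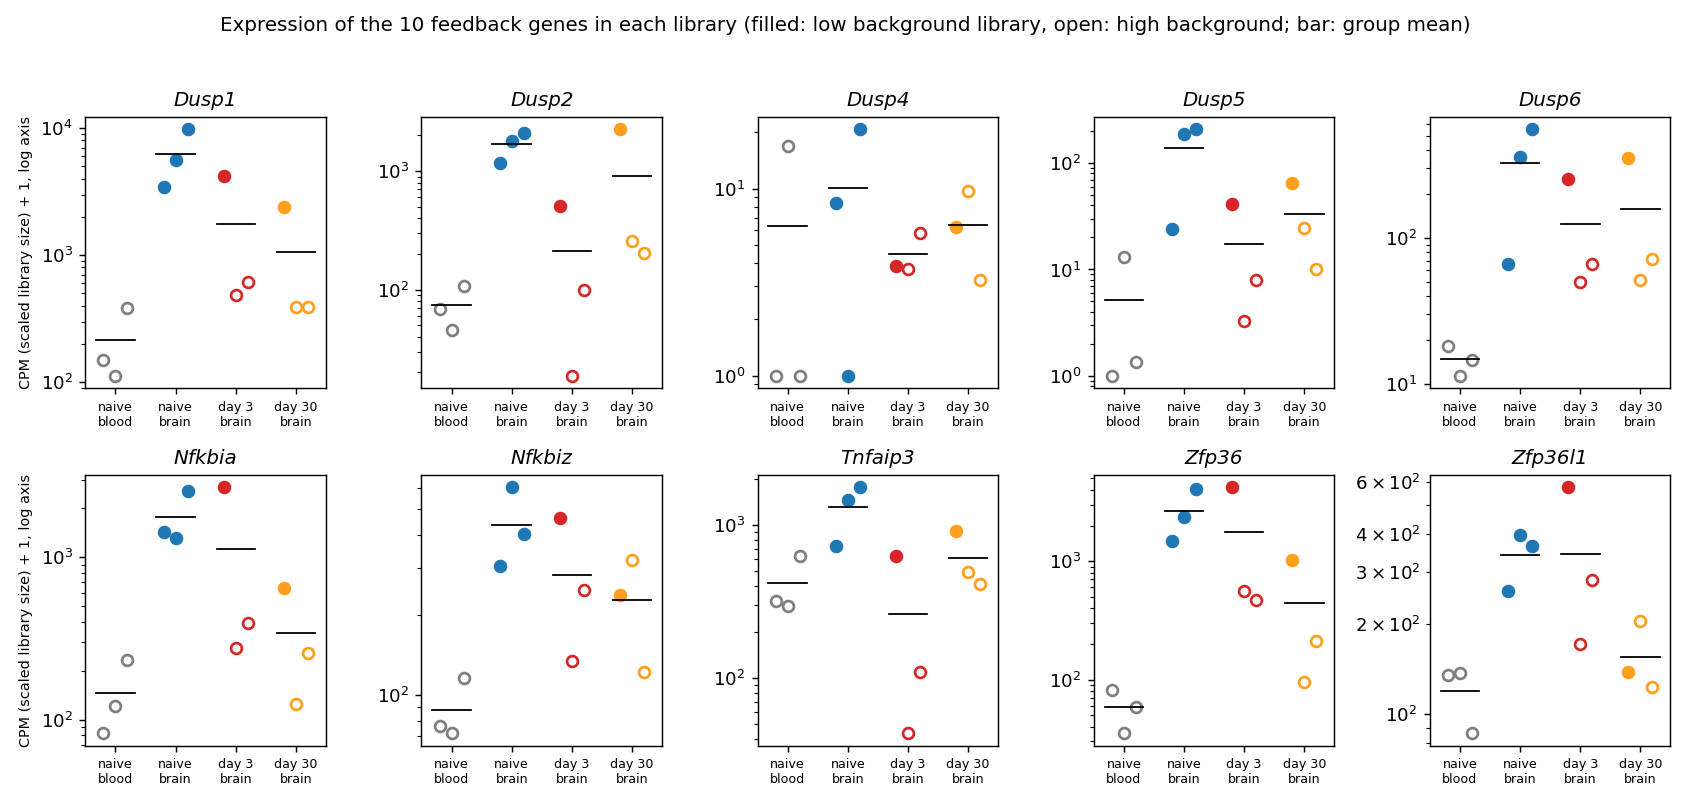
CPM of a scaled library size, plus 1, on a log axis for each of the 10 genes in each library, with filled points for low background and open points for high background libraries and a bar at the group mean. Dusp1 runs from 111 in blood to 9744 in naive brain, and the filled replicate 1 lies above both open replicates for 9 genes at day 3 and 7 genes at day 30.

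Levels were compared between genes after division by the length of each gene's merged exons. In naive brain Dusp1 had the highest mean, 1889.6 CPM per kilobase, followed by Nfkbia (1097), Dusp2 (845), Zfp36 (761) and Tnfaip3 (181). In blood the order was Nfkbia (89.6), Dusp1 (64.6), Tnfaip3 (57.1), Zfp36l1 (39.7) and Dusp2 (36.4). At day 3 it was Nfkbia (697), Dusp1 (532), Zfp36 (504), Zfp36l1 (114) and Dusp2 (104). At day 30 Dusp2 came first (449), ahead of Dusp1 (319), Nfkbia (212), Zfp36 (127) and Tnfaip3 (83.6). That first place rested on replicate 1, without which Dusp2 had 114 CPM per kilobase, Dusp1 117 and Nfkbia 118. At day 3 the first 4 genes kept their order without replicate 1. With replicate spreads as wide as those given below, neighbours in these orders after stroke overlapped in their libraries.

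Dusp1 (ENSMUSG00000024190.7) encodes the nuclear phosphatase MKP-1, which acts on p38, JNK and ERK. It is a protein-coding gene on the minus strand at chr17:26505590-26562128 (GENCODE vM21, GRCm38), a span that also holds Ergic1 on the other strand. The sources used here do not give the strand setting of the counting, so reads of the pair could be mixed. Dusp1 measured 149, 111 and 381 CPM in blood replicates 1 to 3 and 3429, 5596 and 9744 CPM in naive brain. Every naive brain library lay far above every blood library. After stroke it measured 4187, 481 and 614 CPM on day 3 and 2397, 387 and 389 CPM on day 30. The replicate 1 libraries stood 6.16 to 8.70 times above the others of their group. That of day 3 lay inside the naive brain range, and that of day 30 lay below it. Dusp1 was 4.94 ± 0.71 higher in naive brain than in blood (adjusted p = 8.04e-07). It fell at day 30 against naive brain, by a difference of -3.003 ± 0.712 (adjusted p = 0.0431), with all 3 libraries below all 3. That call was lost on leaving out any of the naive brain libraries or day 30 replicate 2 or 3, while without day 30 replicate 1 the difference was -3.88 (adjusted p = 0.000151). At day 3 the difference from naive brain was -2.41 (adjusted p = 0.0978).

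The promoter of Dusp1 is printed because it holds a cyclic AMP response element in full, shown in capitals (TGACGTCA, bases -143 to -136 from the RefSeq start site, where -1 is the base before it). The window is chr17:26508520-26508722 (GRCm38.p6, minus strand, RefSeq), without the part that overlaps an annotated exon. Of 32851 mouse promoter windows of 300 bases, 1.79% hold this element.
Dusp1: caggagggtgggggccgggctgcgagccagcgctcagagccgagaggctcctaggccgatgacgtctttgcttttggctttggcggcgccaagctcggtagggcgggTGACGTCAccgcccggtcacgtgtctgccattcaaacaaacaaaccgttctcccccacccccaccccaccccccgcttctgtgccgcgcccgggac

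Dusp2 (chr2:127336159-127338376, plus strand) encodes PAC-1, a nuclear phosphatase of activated lymphoid and myeloid cells. It measured 67.6, 44.4 and 107 CPM in blood and 1169.7, 1809 and 2098 CPM in naive brain, with no overlap. The day 3 libraries held 512, 17.7 and 98.5 CPM and the day 30 libraries 2243, 254 and 204 CPM. All 3 day 3 libraries lay below naive brain, whereas day 30 replicate 1 lay above it and replicates 2 and 3 far below. Dusp2 was 4.56 ± 0.80 higher in naive brain than in blood (adjusted p = 4.67e-05). At day 3 it fell against naive brain, by a difference of -4.06 ± 0.80 (adjusted p = 0.00329). All 9 tested T cell markers were also called lower in that comparison, from -4.81 to -2.76 with a median of -3.57 (0 of the 9 by edgeR, 6 by DESeq2 and 0 with a term for library background), and their part in the fall was not tested. Leaving out day 3 replicate 2, the library with 17.7 CPM, ended the Dusp2 call, as did edgeR and median centring. So did a term for library background, by which 0 of the 10 and 5 of all tested genes were called at day 3. Of 20 alternatives 15 held the Dusp2 call. Day 30 exceeded day 3 by 2.31 ± 0.80 (unadjusted p = 0.00511, limma adjusted p = 0.384). With the term for library background that difference was also 2.31 and passed the test (adjusted p = 0.0406).

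Dusp5 and Dusp6 encode phosphatases with a narrow range that act on ERK, Dusp5 in the nucleus and Dusp6 in the cytoplasm. Dusp5 (chr19:53529109-53542431, plus strand) measured 0, 12.1 and 0.352 CPM in blood and 22.9, 186 and 206 CPM in naive brain. Its day 3 values were 40.3, 2.27 and 6.96 CPM, and its day 30 values 64.6, 23.4 and 9.03 CPM. Naive brain again lay above blood in every library, but its replicate 1 was far below its replicates 2 and 3. Dusp5 was 5.23 ± 1.09 higher in naive brain (adjusted p = 0.000781), a value that moved with the pseudocount from 3.76 to 6.87 because blood was near 0. Dusp6 (chr10:99263231-99267489, plus strand) measured 17.3, 10.4 and 13.7 CPM in blood and 65.9, 358 and 549.95 CPM in naive brain. Stroke brain gave 254, 49.1 and 65.9 CPM (day 3) and 353, 50.5 and 70.5 CPM (day 30). All 9 brain libraries lay above all 3 of blood. Dusp6 was 4.02 ± 0.83 higher in naive brain than in blood (adjusted p = 0.000716), and neither gene was called between the brain groups by limma (adjusted p from 0.174 to 0.999). Dusp4 (chr8:34807297-34819894, plus strand), a nuclear phosphatase of ERK and JNK, was near the limit of detection. Its reads numbered 0, 29 and 0 (blood), 19, 0 and 198 (naive brain), 9, 6 and 9 (day 3), and 23, 19 and 5 (day 30), so no fold is given.

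Dusp5 had 2 serum response elements (CArG boxes, the sites of serum response factor) side by side before its start, at bases -82 to -73 and -72 to -63. A CArG box was present in 1.63% of promoter windows and 2 or more in 0.0183%. Both sites are shown with their flanks in lower case (plus strand, chr19:53529055-53529080 and chr19:53529065-53529090). The Dusp6 window held none of the 5 motifs searched.
Dusp5 first site: ggaaatacCCATATTTGGccttatat
Dusp5 second site: atatttggCCTTATATGGgcactcac

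Nfkbia (ENSMUSG00000021025.8, chr12:55489410-55492647, minus strand) measured 81.1, 119.6 and 232 CPM in blood and 1425, 1304 and 2568 CPM in naive brain. The groups were separate in every library. After stroke it measured 2700.1, 276 and 393 CPM at day 3 and 643, 124 and 257 CPM at day 30. Day 3 replicate 1 was above all of naive brain, and all day 30 libraries were below it. Nfkbia was 3.67 ± 0.72 higher in naive brain than in blood (adjusted p = 0.000301). The difference of day 30 from naive brain was -2.62 ± 0.72 (adjusted p = 0.111).

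The Nfkbia promoter is shown because it carries an NF-κB site, in capitals, at bases -29 to -20 (chr12:55492648-55492897, minus strand, RefSeq, GRCm38.p6). A κB site by the letters searched was present in 4.51% of promoter windows.
Nfkbia: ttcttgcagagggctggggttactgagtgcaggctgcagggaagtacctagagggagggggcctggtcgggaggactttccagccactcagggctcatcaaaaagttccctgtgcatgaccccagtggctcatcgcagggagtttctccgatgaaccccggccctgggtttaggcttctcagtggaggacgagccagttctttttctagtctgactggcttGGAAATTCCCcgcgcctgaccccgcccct

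Tnfaip3 (chr10:19000910-19015657, minus strand) encodes A20, a ubiquitin-editing enzyme that shuts off NF-κB signalling upstream of IκBα. In blood it measured 318, 293 and 628 CPM and in naive brain 721, 1448 and 1764 CPM. Stroke brain gave 629, 42.3 and 108 CPM (day 3) and 915, 489 and 407 CPM (day 30). Day 3 lay below naive brain in every library, and at day 30 only replicate 1 reached the naive brain range. Tnfaip3 fell at day 3 against naive brain, by a difference of -3.09 ± 0.71 (adjusted p = 0.0180), beside the lower T cell markers given for Dusp2. The call was lost without day 3 replicate 2 or 3 or naive brain replicate 2 or 3, and the difference was -4.16 without day 3 replicate 1 (adjusted p = 0.000177). It was also lost with edgeR, DESeq2, quantile normalization, median centring, a pseudocount of 0.1, no filter and the term for library background. Of 20 alternatives 8 held it. The difference between naive brain and blood was 1.66 ± 0.71 (adjusted p = 0.132) although all 3 libraries lay above all 3. Day 3 against blood was -1.44 (adjusted p = 0.594), and day 30 against day 3 was 1.98 ± 0.71 (adjusted p = 0.443).

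RefSeq gives 2 start sites for Tnfaip3, and a pair of κB sites preceded the first, at bases -125 to -116 and -12 to -3. A site with the AP-1 letters TGANTCA (7.81% of windows) lay at -136 to -130. The window before the second start held none of the motifs searched. The site nearest the start is printed (chr10:19015411-19015430, minus strand).
Tnfaip3 site: tttccatcGGAAATCCCCct

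Nfkbiz (chr16:55811375-55838899, minus strand) encodes IκBζ, a nuclear cofactor that restrains some NF-κB targets and is needed for others. It measured 75.7, 70.8 and 114 CPM in blood, 303, 602 and 401 CPM in naive brain, 462, 134 and 247 CPM at day 3 and 236, 320.0 and 121 CPM at day 30. All 9 brain libraries were above blood, and the brain groups overlapped. It was 2.29 ± 0.70 higher in naive brain than in blood (adjusted p = 0.0310). This call was lost on leaving out naive brain replicate 2 or 3 or any blood library. It was also lost with unscaled CPM, quantile normalization, edgeR and the term for library background. Of 19 alternatives 10 held it.

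Zfp36 (ENSMUSG00000044786.6, chr7:28376784-28380253, minus strand) was the decay factor with the widest range. It measured 80.6, 34.0 and 58.1 CPM in blood, 1476, 2344 and 4103 CPM in naive brain, 4218, 559 and 471 CPM at day 3 and 1016, 93.7 and 210.0 CPM at day 30. All 9 brain libraries were above blood, day 3 replicate 1 was above all of naive brain, and all of day 30 was below it. Zfp36 rose between naive brain and blood, by a difference of 5.45 ± 0.74 (adjusted p = 2.11e-07). It was also the only one of the 10 called at day 3 against blood, 4.23 ± 0.74 (adjusted p = 0.000108). The 7 high background libraries alone gave 3.22 for the same comparison (adjusted p = 0.0157). Day 30 was lower than naive brain, by a difference of -3.15 ± 0.74 (adjusted p = 0.0431). This call was lost on leaving out any naive brain library or day 30 replicate 2 or 3, and without day 30 replicate 1 the difference was -4.10 (adjusted p = 0.000110).

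A CArG box lay at bases -58 to -49 of Zfp36, printed here beside those of Dusp5 because both are early response genes. An EGR site (GCGNGGGCG, 5.55% of windows) lay further from the start at -105 to -97, and Dusp2 had such a site at -98 to -90. The CArG site is at chr7:28379269-28379294 (minus strand). Motifs were searched on both strands, no 2 of the matches shared a base, and a match is a string of letters, not evidence of binding. RefSeq windows were at hand for 8 of the 10 genes, without Dusp4 and Nfkbiz.
Zfp36 site: aggccgccCCATAAAAGGagaaagct

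Zfp36l1 (chr12:80107754-80113013, minus strand), a paralogue with a part in lymphocyte quiescence, had a narrower range. It measured 135, 137 and 85.2 CPM in blood, 258, 396 and 363 CPM in naive brain, 574, 171 and 280.1 CPM at day 3 and 137, 204 and 122 CPM at day 30. Naive brain was above blood and above day 30 in every library, and day 3 spanned the naive brain range. Limma called it in none of the 6 comparisons, with 1.51 between naive brain and blood (adjusted p = 0.155) and -1.14 between day 30 and naive brain (adjusted p = 0.642). Its promoter held an AP-1 match at -129 to -123.

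**Figure D2:**
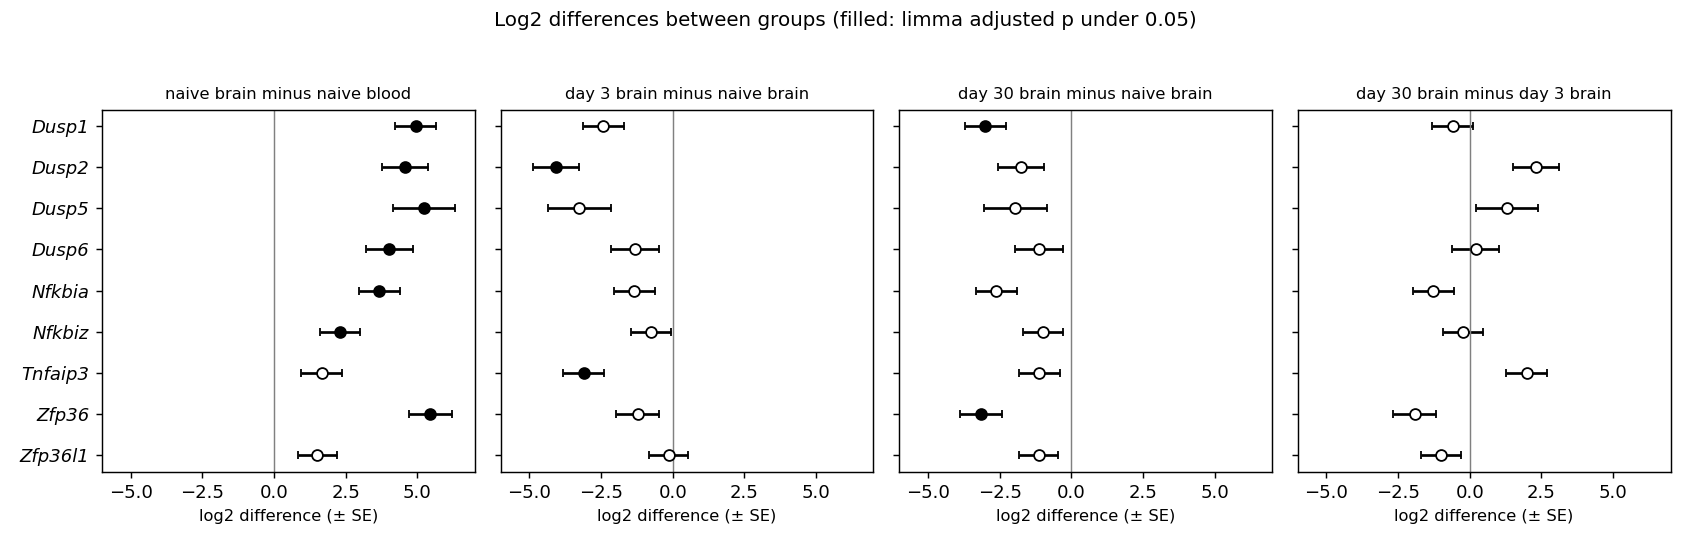
Log2 differences with SE for 9 of the genes (Dusp4 left out for its low reads) in 4 comparisons, with filled points where limma's adjusted p was under 0.05. Naive brain exceeds blood for all 9, from 1.51 to 5.45, while Dusp2 and Tnfaip3 at day 3 and Dusp1 and Zfp36 at day 30 are the calls against naive brain.

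The median difference of the 10 genes between naive brain and blood was 3.85, beside -0.37 over all tested genes. Day 3 and day 30 against naive brain gave medians of -1.33 and -1.44, beside 0.50 and 0.19. Day 30 against day 3 gave -0.02, beside -0.15. Against blood day 3 and day 30 gave 1.76 and 1.61, beside 0.03 and -0.05. At day 3 all 10 differences from naive brain were negative, from -4.06 to -0.14. The comparisons share libraries and are not separate pieces of evidence. With a term for library background, 0 of the 10 were called between naive brain and blood, and the median of the 10 was 1.36. That term left 35 of all tested genes called (0.157%), where 1696 were called without it. Blood libraries are all of high and naive brain libraries all of low background, so only the stroke groups inform that term.

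Relative to Ptprc, which encodes the leukocyte surface protein CD45, the step between blood and naive brain was also seen within libraries, where scaling plays no part. Reads of Zfp36 per read of Ptprc were 0.0475, 0.0466 and 0.0415 in blood and 1.5, 1.62 and 2.51 in naive brain. Reads of Dusp2 per read of Ptprc were 0.0398, 0.0609 and 0.0762 in blood and 1.19, 1.25 and 1.28 in naive brain. Dusp2 per read of Cd3e, a subunit of the T cell receptor, gave another picture, with 1.13, 1.59 and 0.458 in blood and 1.57, 1.01 and 1.36 in naive brain, which overlapped. Dusp2 per Cd3e was 1.19, 0.402 and 3.54 at day 3 and 0.946, 1.16 and 0.516 at day 30, so that all 4 groups overlapped. Tnfaip3 per read of Cd3e was higher in blood (5.30, 10.5 and 2.70) than in naive brain (0.966, 0.812 and 1.14), without overlap. These ratios depend on the marker chosen. Cd3e measured 60.0, 28.0 and 233 CPM in blood and 746, 1784 and 1544 CPM in naive brain. Cd3d, another T cell marker, measured 1040, 430 and 977 CPM in blood and 1041, 1097 and 1758 CPM in naive brain. Dusp2 was higher in naive brain than in blood, without overlap, relative to Cd3d and to every other T cell marker in the table except Cd3e. Tnfaip3 was higher in naive brain, without overlap but by a narrow margin, relative to Cd3d alone. Relative to Cd8a, Lck and Cd2 it was lower in naive brain without overlap, as with Cd3e. For Tnfaip3 relative to Cd3g, Cd8b1, Lat and Cd247 the groups overlapped. The genes in these ratios were chosen after their values were seen.

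Between day 30 and day 3 the brakes diverged in their proportions. Reads of Dusp2 per read of Dusp1 were 0.122, 0.0369 and 0.160 at day 3 but 0.936, 0.657 and 0.523 at day 30. Naive brain gave 0.341, 0.323 and 0.215. It thus lay between the stroke groups, with no overlap among the 3. Reads of Tnfaip3 per read of Nfkbia were 0.233, 0.153 and 0.274 at day 3 but 1.42, 3.95 and 1.58 at day 30. Naive brain, with 0.506, 1.11 and 0.687, again lay between them. Zfp36 per Dusp1 was 1.01, 1.16 and 0.767 at day 3, above naive brain (0.430, 0.419 and 0.421) and day 30 (0.424, 0.242 and 0.539), which overlapped each other. Between day 30 and day 3 all 3 libraries of each time lay apart, so the separations necessarily held within each background class. The low background class has 1 library of each time. This is therefore no further check on background. Naive brain has low background libraries only, so its separations could not be compared in both classes.

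Of the 28 ratios among the 8 genes with reads in every library, 16 (57.1%) did not overlap between day 30 and day 3, where 14.3% of the ratios among the 9957 genes with such reads did not. Day 3 against naive brain gave 18 (64.3%, background 17.8%), day 30 against naive brain 7 (25%, background 14.7%) and naive brain against blood 18 (64.3%, background 32.7%). Against blood day 3 gave 18 (64.3%, background 20.1%) and day 30 gave 9 (32.1%, background 16.7%). The ratios share genes and are not independent, and they were computed after the values were known.

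**Figure D3:**
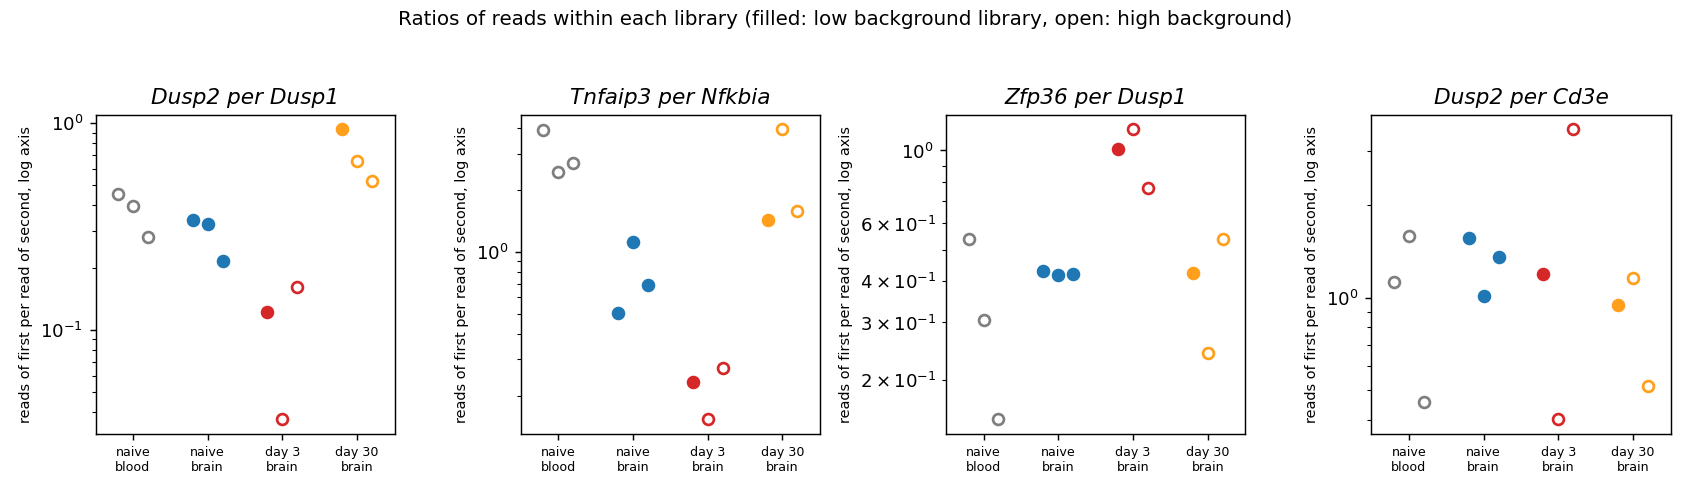
Reads of a gene per read of another in each library, on log axes, with filled points for low background and open points for high background libraries. Dusp2 per Dusp1 and Tnfaip3 per Nfkbia are lowest at day 3 and higher at day 30 without overlap, Zfp36 per Dusp1 is highest at day 3, and Dusp2 per Cd3e overlaps in all 4 groups.

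The same order was seen in CPM when libraries were compared within a background class. In the low background pair and in the high background libraries, day 30 lay above day 3 for Dusp2, Dusp5 and Tnfaip3 (10.9% of tested genes) and below it for Dusp1, Nfkbia and Zfp36 (11.3%). Dusp5 rested on few reads there, with 5 and 13 in the high background libraries of day 3 and 51 and 20 in those of day 30. For Zfp36 this was 1016 against 4218 CPM in the low background pair, and 93.7 and 210.0 against 559 and 471 CPM in the high background libraries. For Tnfaip3 it was 915 against 629 CPM, and 489 and 407 against 42.3 and 108 CPM. On CPM without scaling, limma called 4 of the 10 between day 30 and day 3, with Dusp2 (2.02, adjusted p = 0.00699) and Tnfaip3 (1.69, adjusted p = 0.0166) higher and Nfkbia (-1.58, adjusted p = 0.0329) and Zfp36 (-2.23, adjusted p = 0.000177) lower. In that setting 265 of all tested genes were called (1.18%), where 57 were called on the scaled values. On the scaled values the corresponding adjusted p ran from 0.384 to 0.917.

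The genes also differed in which marker levels they followed. Over the 12 libraries Tnfaip3 and Dusp2 followed the mean log2 level of the T cell markers (Pearson r of 0.950 and 0.925) more than that of the microglia markers (0.440 and 0.774). Zfp36, Dusp1, Nfkbia, Dusp6 and Nfkbiz followed the microglia markers (0.950, 0.933, 0.921, 0.913 and 0.863) more than the T cell markers (0.427, 0.643, 0.505, 0.614 and 0.524). Dusp5 and Zfp36l1 had 0.842 and 0.793 with microglia and 0.704 and 0.229 with T cell markers. These values describe 12 libraries in 4 groups that share scaling and background, and have no p. Between day 30 and day 3 itself T cell markers differed, with 3 of the 9 tested higher by limma (0 by edgeR, 3 by DESeq2 and all 9 with the term for library background). The part of cell mixture in the ratios was not tested.

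**Figure D4:**
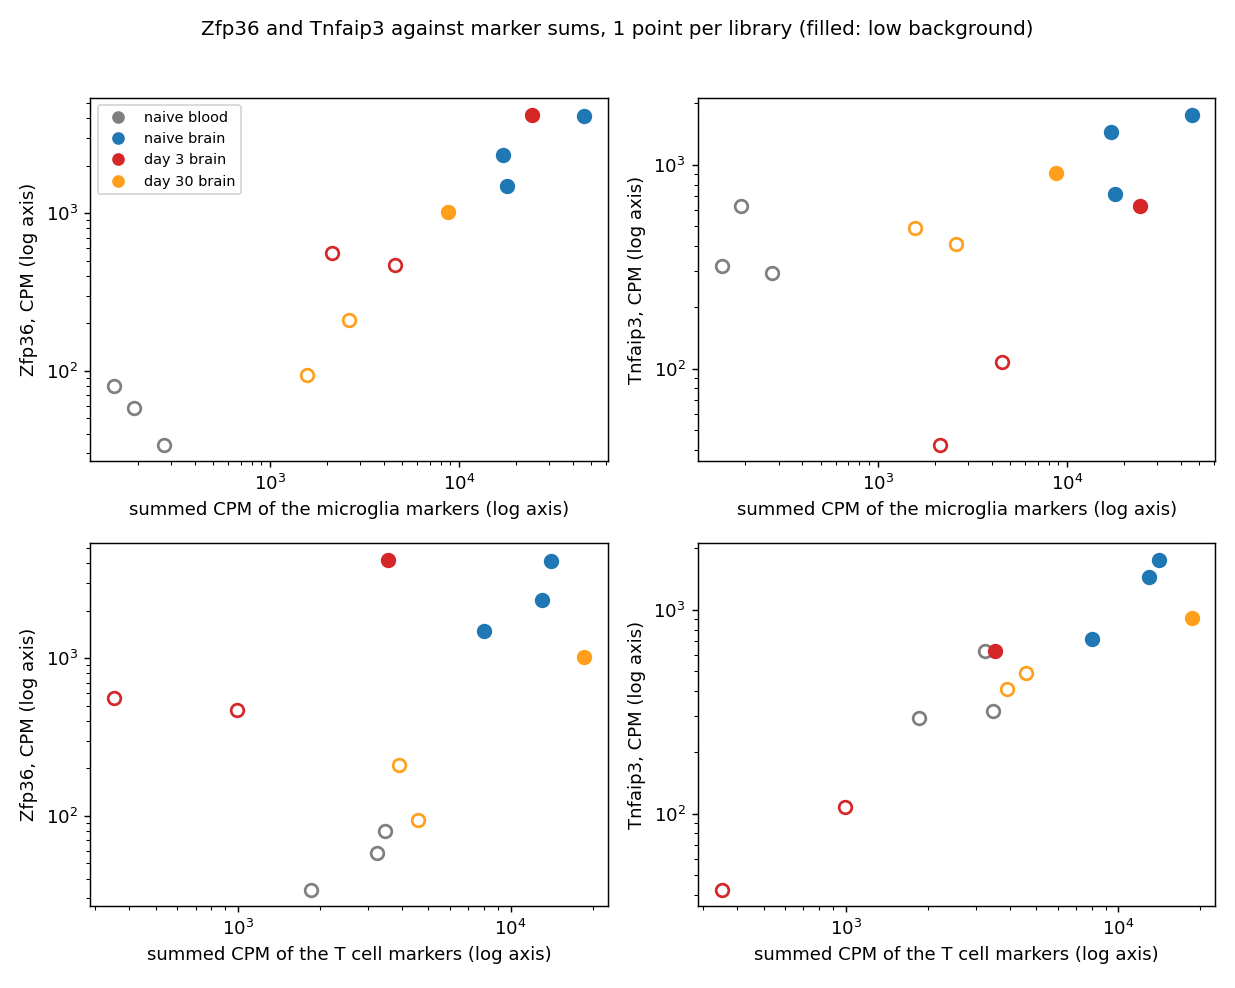
Zfp36 and Tnfaip3 in CPM against the summed CPM of microglia markers (upper panels) and T cell markers (lower panels), all axes log, with 1 point per library coloured by group and filled for low background. Zfp36 lines up with the microglia sum, from 150 to 45802 CPM, and Tnfaip3 with the T cell sum, from 351 to 18629 CPM.

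Among the 10 genes the closest pairs over the 12 libraries were Dusp1 with Nfkbia (r = 0.960) and Zfp36 with Nfkbia (0.944). Dusp6 and Nfkbiz were also most like Dusp1 (0.903 and 0.876), Dusp2 was most like Tnfaip3 (0.861), Dusp5 most like Dusp6 (0.850) and Zfp36l1 most like Nfkbiz (0.838). The median over the 45 pairs was 0.737, and the lowest was 0.034, between Dusp4 and Tnfaip3. Of 10783 genes ranked by likeness to the mean of the 10, the highest were Olfml3 (0.986), Lig1 (0.985), Hnrnpul1 (0.971), Il10ra (0.969), Coro1a, Capzb and Lsp1 (0.967 each), Actg1 and Ppp1r15a (0.965 each) and the microglia marker Cx3cr1 (0.964).

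Other genes of these pathways were counted from 5 lists. Together 7 of their 68 genes rose between naive brain and blood (10.3%, beside 6.61% of all tested genes). Of 19 genes of the MAP kinase cascade, 2 rose between naive brain and blood, Map2k2, an activator of ERK (3.54 ± 0.81), and Mapk3, which encodes ERK1 (2.85 ± 0.90). Of 10 NF-κB subunits and kinases 1 rose, Nfkb2 (2.57 ± 0.85), and of 11 other NF-κB inhibitors 1 rose, Nfkbie (3.96 ± 0.88), which encodes IκBε. Among 14 other dual-specificity phosphatases and Sprouty family genes Dusp7 rose (2.88 ± 0.93), and among 14 other mRNA decay and stability factors Btg2 and Cnot8 rose (4.58 ± 0.74 and 3.72 ± 0.91). None of these 5 lists had a limma call between day 3 and naive brain (0 to 3 genes each at an unadjusted p under 0.05), where edgeR called none and DESeq2 called 2 higher in the phosphatase and Sprouty list. At day 30 against naive brain Btg2, an antiproliferative deadenylation factor, fell by 3.08 (adjusted p = 0.0485).

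Genes induced by the same signals and targets of the decay factors made up further lists, to be read beside the shares of all tested genes given above: 6.61% higher between naive brain and blood, 0.564% and 0.224% lower at day 3 and day 30 against naive brain, and 0.139% lower at day 30 against day 3. Of 12 immediate early genes 9 rose between naive brain and blood, led by Egr1 (7.82 ± 0.76), Fos (7.05 ± 0.71) and Jun (6.74 ± 0.73), transcription factors of the early response. At day 3 against naive brain 3 of the 12 fell, Junb (-3.22), Egr1 (-3.19) and Jun (-2.91), and at day 30 4 fell, led by Jun (-5.16), Fos (-4.19) and Atf3 (-4.07). Of 14 AU-rich mRNAs that Zfp36 proteins are known to bind, 7 rose between naive brain and blood, among them Ifng (6.51 ± 0.94), Ier3 (5.57 ± 1.06) and the chemokine gene Ccl4 (5.57 ± 0.69). At day 3 against naive brain Ifng and Myc fell (-4.12 and -3.55), and at day 30 Cxcl2 and Ier3 fell (-4.66 and -4.54). Day 30 against day 3 had 3 calls in this list, all lower, Cxcl2 (-6.98), Il1b (-5.38) and Cxcl1 (-4.53), and edgeR and DESeq2 also called 3 lower. Zfp36 itself had a difference of -1.93 ± 0.74 in that comparison (adjusted p = 0.547). With the term for library background, 4 of the immediate early genes and 1 of the AU-rich mRNAs were called between naive brain and blood, and 0 of either list at day 3 or day 30 against naive brain.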

How the data were processed

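CD8 T cells were sorted into lysis buffer and their RNA amplified with a SMART-Seq v4 ultra-low-input kit, per the labels' protocols, without molecular identifiers. FastQC 0.11.2, STAR 2.5.3a, mm10, featureCounts (Subread) and edgeR are named in the submitters' processing notes. The sources used here do not give the annotation, strand setting or filters. The authors deposited a signal table of counts per-million of a scaled library size. Whole reads were recovered in every column (100% of values within 1e-06 reads). The plan assumed CPM, and the scaled values were tested in the same way.

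Values were tested as log2(CPM + 1) by limma 3.58.1 (R 4.3.3, empirical Bayes with a trend), all 12 libraries together. The tests covered the 22352 genes that reached 1 CPM in 3 or more libraries. There were 6 comparisons, two-sided, adjusted by Benjamini and Hochberg, after checks on simulated data. The simulation was of naive brain and day 3 libraries without background classes, so it did not check the part of background. Alternatives included edgeR 4.0.16 and DESeq2 1.42.0 on recovered reads. Groups follow the labels. The 10 genes and all lists were chosen with earlier results of these data known. All 10 are named, with up to 3 called genes per other list and comparison, by largest difference; Dusp4 gets no fold for its low reads. Numbers of replicates are the labels' own. Between day 30 and day 3, same-numbered libraries deviated together from their group means (r of 0.530, 0.284 and 0.165). So did replicate 2 of day 30 with replicate 3 of day 3 (0.214) and replicate 3 with replicate 2 (0.180). Pairing by number therefore cannot be told apart from the background split. The main test used no pairing, and a block for replicate number was an alternative. Motifs and sequences come from RefSeq promoter windows, locations from GENCODE vM21.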

Additional observations from a re-analysis of the deposited data

How the results depend on the processing

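Counts of the 10 are to be read beside the calls over all tested genes, which also moved. Between naive brain and blood these were 1696, with 704 by quantile normalization, 4169 with library quality weights and 35 with the background term. At day 3 against naive brain the 160 ran from 0 with the low background libraries alone to 2104 with library quality weights, and at day 30 the 50 ran from 0 to 532, the latter without day 30 replicate 1. With unscaled CPM the 57 between day 30 and day 3 became 265. Depth limits Dusp4 and, in blood and the high background stroke libraries, Dusp5, whose values rest on few reads. The count of genes called of the 10 between naive brain and blood stayed between 6 and 9 except with the term for library background, where it was 0 (6 to 7 on leaving out a library). At day 3 against naive brain the 2 calls became 1 with a pseudocount of 0.1, no filter, quantile normalization or DESeq2, 6 with library quality weights, and 0 with median centring, the background term, edgeR or the low background libraries alone (0 to 4 on leaving out a library). At day 30 against naive brain the 2 became 0 with either pseudocount, no filter or the stricter filter, median centring, quantile normalization, the 2 groups alone, the background term, edgeR, DESeq2 and the low background libraries alone (0 to 4 on leaving out a library). The 0 at day 30 against day 3 became 4 with unscaled CPM and 1 with quantile normalization, library quality weights or the background term (0 to 2 on leaving out a library). The 1 at day 3 against blood became 5 with unscaled CPM or quantile normalization, 4 with DESeq2, 2 with the background term and 0 with median centring (1 to 3 on leaving out a library). The 0 at day 30 against blood became 4 with unscaled CPM, 1 with quantile normalization and 2 with edgeR or DESeq2 (0 to 1 on leaving out a library). The 5 low and the 7 high background libraries alone were chosen as alternatives after seeing the data. The cause of these shifts was not tested.

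With a replicate block the calls were 3 at day 3 and 3 at day 30 against naive brain, 7 between naive brain and blood, 0 between day 30 and day 3, and 4 each at day 3 and day 30 against blood. Outside day 30 against day 3 the correlations of same-numbered libraries ran from -0.42 to 0.15, and there the libraries share only a number.

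Differences with the opposite sign, none past the test in the setting where it turned, were as follows. Against naive brain they were, at day 3, Nfkbiz 0.23 and Zfp36l1 0.84 with unscaled CPM; Nfkbiz 0.42, Zfp36 0.057 and Zfp36l1 0.98 with quantile normalization; Dusp6 0.24, Nfkbia 0.28, Zfp36 0.74 and Zfp36l1 0.25 with the background term; and Zfp36l1 0.033 with edgeR and 0.36 with DESeq2. With the low background libraries alone they were Dusp6 0.11, Nfkbia 0.68, Nfkbiz 0.14, Zfp36 0.80 and Zfp36l1 0.78. Dusp2 at day 30 against naive brain was 0.54, Dusp6 0.44 and Tnfaip3 0.30 with the background term, and Dusp2 0.45 and Dusp6 0.58 with the low background libraries alone. Between day 30 and day 3 Dusp6 was -0.095 with unscaled CPM and -0.24 with quantile normalization, and Nfkbiz 0.064 with library quality weights and 0.11 with the high background libraries alone. Between naive brain and blood Tnfaip3 was -0.46 with the background term. Dusp2 at day 3 against blood was -0.44 with library quality weights, -0.64 with the background term and -0.69 with the high background libraries alone. Zfp36l1 at day 30 against blood was -0.15 with unscaled CPM and -0.27 with quantile normalization, and Tnfaip3 -0.16 with quantile normalization and -0.16 with the background term. On leaving out a library Zfp36l1 (day 3 against naive brain) ran from -0.61 to 0.26. Between day 30 and day 3 Dusp1 ran from -1.47 to 0.39, Nfkbiz from -0.69 to 0.20 and Dusp6 from -0.64 to 0.91, and Dusp2 (day 3 against blood) from -0.69 to 1.70.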
